A study of Mus musculus with 10 samples.

Results

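The genes described here encode 8 enzymes that make asparagine, proline, glutamine, alanine and aspartate or feed the carbon of these amino acids towards glucose: Asns, Aldh18a1, Pycr1, Glul, Gpt2, Got1, Got2 and Pck2. They were chosen by name, and their probes were found through the RefSeq accession that the scanner files give for each probe. Of the 8 genes, 7 had a probe among the 19752 genes that could be named in this way, and each of the 7 had a single probe. Pycr1, the enzyme of the last step of proline synthesis, had no matched probe and its level was not analysed here.

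RNA was measured on 10 single-colour Agilent mouse arrays in 5 groups of 2. Fv2E-PERK, which the skeletal actin promoter of the hSA::Fv2E-PERK mice expresses in muscle fibres, is a form of the kinase PERK that the compound AP20187 joins into active pairs, so that PERK signalling can be started by an injection. Male C57BL/6J mice gave the muscle: wild type left untreated, Fv2E-PERK given vehicle by intraperitoneal injection, and Fv2E-PERK given AP20187 at 1 ng/g, with the injected mice sampled after 12 h. C2C12, a mouse myoblast line, carried Fv2E-PERK in both of its groups, had been differentiated for 3 days in 2% horse serum, and received ethanol vehicle or 100 nM AP20187 for 12 h. Wild type mice received no injection, so genotype and injection cannot be told apart in comparisons with wild type, and the muscle sampled is not named. The labels do not say whether the replicates came from separate animals or cultures, so the p-values measure only the spread between these samples, which may be technical.

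PERK phosphorylates the translation factor eIF2alpha, which lowers general protein synthesis but raises translation of the transcription factor ATF4. ATF4, together with C/EBP partners, switches on genes for amino acid synthesis and uptake through a composite DNA element whose core is TGATGNAA, and Asns is the textbook target of this pathway. In muscle the transaminases and glutamine synthetase also carry the nitrogen of broken-down amino acids into alanine and glutamine, which the muscle releases to the liver, and glutamine synthetase is a known target of glucocorticoids there.

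The sequence before each gene's start was read for that core, TGATGNAA, and for the E-box CACGTG, on both strands and in the 250 bases before the RefSeq start (GRCm38.p6). The first was found before 4 of the 8 genes (Asns, Pycr1, Got1 and Pck2) and in 3.5% of the 32851 windows of the same kind over all genes. CACGTG was found before Aldh18a1 only, and in 6.0% of all windows. Because the 8 genes were chosen by name and include a textbook target of this pathway, setting these shares side by side is no test. The windows of the 4 measured genes with a match are shown because these genes were higher in transgenic than in wild type muscle; capitals mark the matched bases.

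Asns (chr6:7693210-7693459, minus strand): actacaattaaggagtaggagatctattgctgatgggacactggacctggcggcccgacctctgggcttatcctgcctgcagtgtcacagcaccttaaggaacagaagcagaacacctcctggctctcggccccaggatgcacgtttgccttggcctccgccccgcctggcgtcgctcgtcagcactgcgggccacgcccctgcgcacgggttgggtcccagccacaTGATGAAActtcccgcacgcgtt

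Aldh18a1 (chr19:40588464-40588713, minus strand): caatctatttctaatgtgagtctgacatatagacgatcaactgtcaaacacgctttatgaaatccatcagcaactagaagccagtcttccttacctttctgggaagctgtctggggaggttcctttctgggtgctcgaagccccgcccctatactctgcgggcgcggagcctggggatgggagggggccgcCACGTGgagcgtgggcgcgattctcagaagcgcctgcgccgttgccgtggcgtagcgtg

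Got1 (chr19:43524606-43524855, minus strand): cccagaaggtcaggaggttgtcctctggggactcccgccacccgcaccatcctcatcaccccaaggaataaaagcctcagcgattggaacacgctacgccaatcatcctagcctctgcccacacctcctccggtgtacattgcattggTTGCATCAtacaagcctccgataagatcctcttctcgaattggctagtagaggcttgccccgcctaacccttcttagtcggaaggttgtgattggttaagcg

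Pck2 (chr14:55540016-55540265, plus strand): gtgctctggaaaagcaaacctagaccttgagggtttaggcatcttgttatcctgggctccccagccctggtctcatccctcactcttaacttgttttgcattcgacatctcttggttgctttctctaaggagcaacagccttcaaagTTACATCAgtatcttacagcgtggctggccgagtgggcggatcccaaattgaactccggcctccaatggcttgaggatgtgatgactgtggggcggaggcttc

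The Asns match (TGATGAAA) lay on the strand of the gene and began 23 bases before its start. In Got1 and Pck2 the match was on the opposite strand and began 102 and 103 bases before the start, where the strand of the gene reads TTGCATCA and TTACATCA. Pycr1 had TGATGCAA on its own strand, 103 bases before its start, and the E-box of Aldh18a1 began 59 bases before. Neither string occurs in the windows of Glul, Gpt2 and Got2. A match describes the letters of the window and does not show that a factor was bound there.

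**Figure D1:**
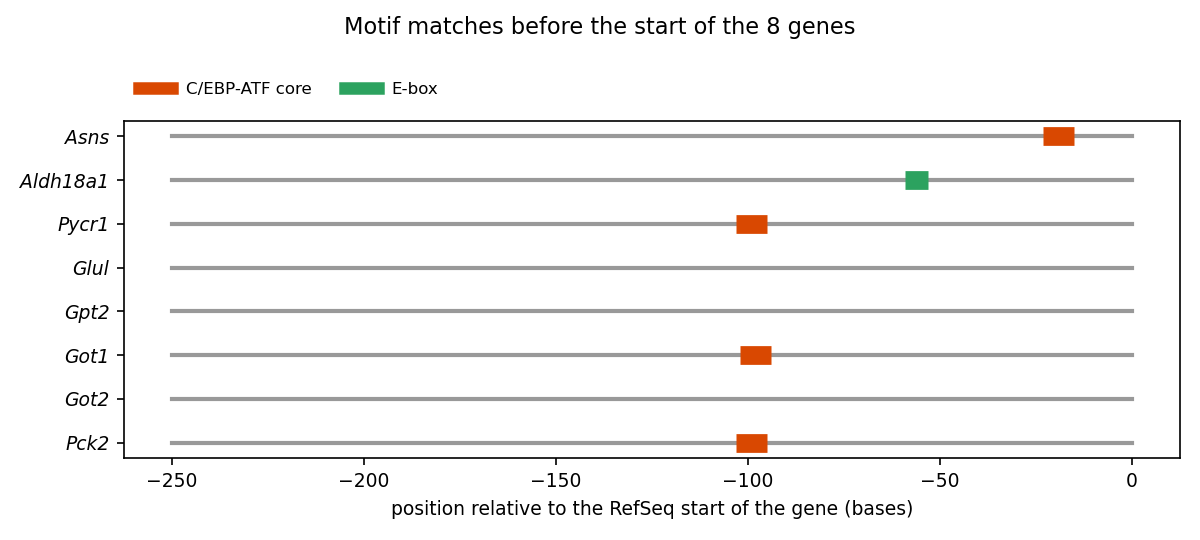
Matches to the C/EBP-ATF core TGATGNAA and to the E-box CACGTG in the 250 bases before the RefSeq start of the 8 genes; the x axis is the position relative to the start in bases. Grey lines are the windows, and coloured blocks are the matches. The core is found before 4 genes, nearest the start in Asns at 23 bases, and the E-box before Aldh18a1.

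On the arrays 41% to 53.1% of gene spots were well above background and none was saturated. Much of this range lay between the C2C12 vehicle replicates, at 52.41% and 40.97%, whose 75th percentiles were 226.4 and 157.5. Spots with an outlier flag were 0.16% to 2.37% of gene spots and were most frequent on the C2C12 AP20187 arrays; 1 of them was the Asns spot of replicate 1 of that group, which therefore has no Asns value. The arrays were scanned in 3 sessions, with wild type muscle in the first, all transgenic muscle in the second and all C2C12 in the third. Transgenic against wild type and C2C12 against muscle can therefore not be told apart from the session, whereas both AP20187 comparisons lie within 1 session. Skeletal muscle markers were all 10 well above background in every muscle group. Summed over the 8 with a value on every array, their intensity in multiples of each array's 75th percentile was 9001 to 10331 in wild type, 10921 to 11012 in transgenic vehicle and 7909 to 9019 in transgenic AP20187 muscle, and 626 to 814 in C2C12. Of 9 myogenic markers, 7 were well above background on both arrays of C2C12 vehicle and 5 on both of C2C12 AP20187. Myf5 was not above background in any group, C2C12 included. Myh3 and Mymk were not counted as above background in C2C12 AP20187, but left-out spots are not counted and both genes lacked some values. In whole muscle, fewer cells of a type and less RNA per cell cannot be told apart.

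Levels below are log2 intensities minus log2 of the 75th percentile of the array, so that 0 is the level of that percentile; they can be compared between groups for one gene but not between genes, whose probes differ. Tests are limma's moderated tests with Benjamini-Hochberg adjustment over all genes tested, and a gene is described as called where its adjusted p was under 0.05.

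**Figure D2:**
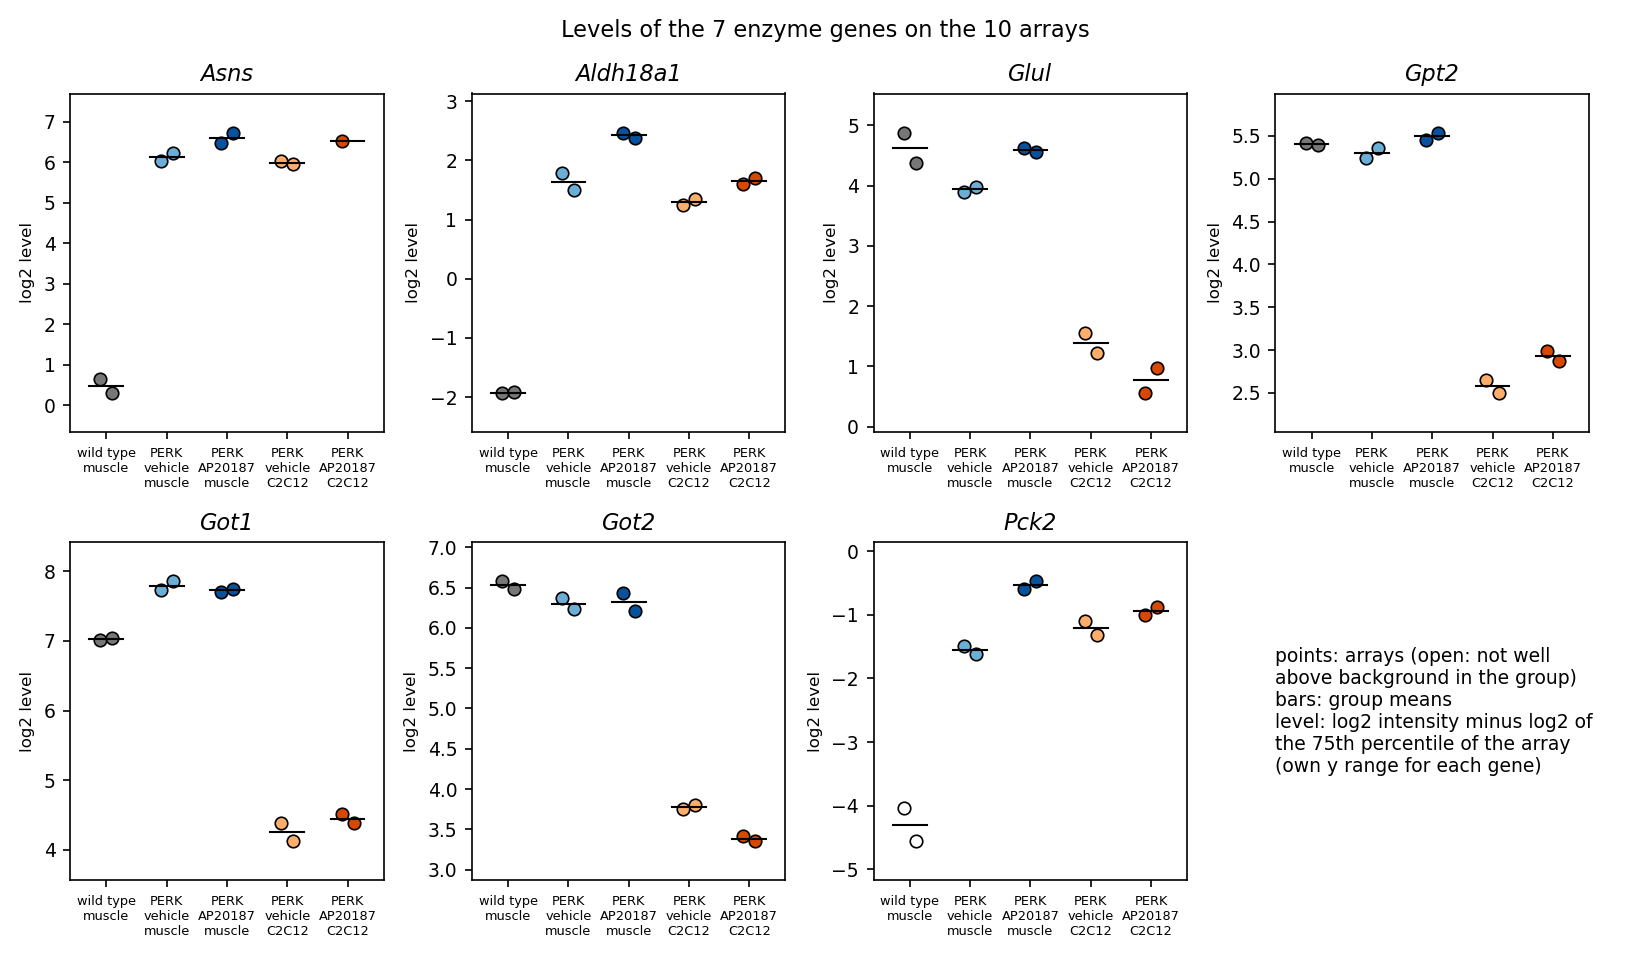
Levels of the 7 measured genes on each array; the y axis is the log2 intensity minus log2 of the 75th percentile of the array, with a range of its own for each gene. Points are arrays, bars are group means, and open points mark Pck2 in wild type muscle, which was not well above background. Asns, Aldh18a1 and Pck2 are low in wild type muscle alone, whereas Glul, Gpt2, Got1 and Got2 are low in C2C12.

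Transgenic muscle was compared with wild type muscle first, since this difference was by far the larger for Asns and Aldh18a1. Without AP20187, vehicle-injected transgenic muscle already held 50.5 times the wild type Asns level and 11.8 times that of Aldh18a1. For Pck2 it held at least 5.90 times, a bound worked out with the background correction of the scanner files only. Got1 was 1.71-fold higher and Glul 1.61-fold lower, while Gpt2 and Got2 did not pass the test. Of the 7 genes, 4 were called higher and 1 lower, against 25.7% and 12.6% of the 13515 genes tested in these directions (38.3% in either). Pck2 is among the 4, although it was tested only because it was detected in transgenic muscle.

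Asns, which makes asparagine from aspartate with glutamine as the nitrogen donor, had levels of 0.65 and 0.30 on the wild type arrays. The transgenic vehicle arrays gave 6.03 and 6.23 and the transgenic AP20187 arrays 6.47 and 6.73. All transgenic arrays stood far above both wild type arrays, and the log2 difference of vehicle from wild type was 5.66 (SE 0.15, n = 2 and 2, limma adjusted p = 7.09e-07). It ranked 10 from the highest of the 13515 genes tested.

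Aldh18a1 makes pyrroline-5-carboxylate from glutamate, the entry into proline and ornithine synthesis. Its levels were -1.93 and -1.92 in wild type, 1.78 and 1.50 in transgenic vehicle and 2.47 and 2.38 in transgenic AP20187 muscle. No 2 of these groups overlapped, and vehicle exceeded wild type by 3.57 (SE 0.13, limma adjusted p = 3.36e-06), rank 34 from the highest.

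Pck2, the mitochondrial phosphoenolpyruvate carboxykinase, was measured by 10 spots of its probe. Its mean intensity before scaling was 9.65 and 7.64 on the wild type arrays, 62.9 and 54.3 in transgenic vehicle and 128 and 146 in transgenic AP20187 muscle. Wild type was not well above background on either array, so only a bound could be given. With the background correction of the scanner files, the vehicle level was at least 5.90-fold and the AP20187 level at least 11.9-fold higher. The bound sets the bright group's mean against, on each dim array, the higher of the probe's own value and the lowest signal among probes well above background. The measured means were -4.30 in wild type and -1.55 in vehicle, which the fit called (limma adjusted p = 0.000197). Among the muscle groups Pck2 met the filter for testing through the transgenic groups alone. The call against wild type therefore sets a level selected for being detected against one at background. With normexp background correction the fitted difference shrank from 2.75 to 0.81 and was still called, and that of Aldh18a1 from 3.57 to 2.30. The Pck2 value of 0.81 lies below the bound, 2.56 on the log2 scale, so the bound does not hold under every background correction.

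Got1, the cytosolic aspartate transaminase, was 7.01 and 7.04 in wild type and rose to 7.73 and 7.86 in transgenic vehicle muscle. The difference of 0.77 was called (SE 0.09, limma adjusted p = 0.000819) and fell to 0.25 under quantile normalization, still called. Its mitochondrial counterpart Got2 did not pass the test, with levels of 6.58 and 6.48 in wild type and 6.37 and 6.23 in transgenic vehicle muscle (difference -0.22, SE 0.11, limma adjusted p = 0.143). Gpt2, the mitochondrial alanine transaminase, gave 5.42 and 5.39 in wild type and 5.24 and 5.36 in transgenic vehicle (difference -0.11, limma adjusted p = 0.38). Quantile normalization and the percentile over detected probes called both of these lower: Gpt2 at -0.38 and -0.27, and Got2 at -0.69 and -0.39. The percentile over detected probes moved the median of all genes from 0.09 to -0.08. Relative to the median Gpt2 was -0.19 and Got2 -0.31, both there and with the scaling used here. Under quantile normalization (median 0.01) they were -0.40 and -0.70 relative to it.

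Glul, the glutamine synthetase, was the only one of the 7 called lower in transgenic vehicle muscle. It gave 4.88 and 4.38 in wild type and 3.90 and 3.98 in transgenic vehicle, so that the groups did not overlap (difference -0.69, SE 0.15, limma adjusted p = 0.0109). Without transgenic vehicle replicate 1 the difference was -0.65 with an adjusted p of 0.0543 (limma). In transgenic AP20187 muscle it stood at 4.63 and 4.55, between the wild type arrays, and the difference from wild type was -0.03 (95% interval -0.39 to 0.32, limma adjusted p = 0.869).

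AP20187-injected transgenic against wild type muscle shares the wild type arrays with the comparison above. There 4 of the 7 genes were called higher and 0 lower, against 29.6% and 22.5% of all genes tested (52.2% in either direction). Asns differed by 6.12, Aldh18a1 by 4.35 and Got1 by 0.71 on the log2 scale. Pck2, whose wild type level is only a bound, was at least 11.9-fold higher with the background correction of the scanner files. Its fitted difference shrank from 3.76 to 1.40 with normexp, below the bound of 3.57, and was still called. Here too Pck2 was tested through the transgenic groups alone. Gpt2 (0.09, limma adjusted p = 0.435) and Got2 (-0.21, limma adjusted p = 0.147) did not pass, and under quantile normalization and the percentile over detected probes the Gpt2 value turned to -0.05 in each. Those settings called Got2 lower, at -0.47 (limma adjusted p = 0.0133) and -0.35 (0.0352). The percentile over detected probes moved the median of all genes from 0.04 to -0.09. Relative to the median Got2 was -0.25 both there and with the scaling used here, and -0.50 under quantile normalization.

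AP20187 in transgenic muscle raised 4 of the 7 genes within 12 h. For Asns and Aldh18a1 the rise was much smaller than the difference of transgenic vehicle from wild type muscle, and for Pck2 it was smaller. For Glul the log2 rise of 0.65 was near in size to that difference, -0.69, and opposite in direction. Pck2 rose 2.02-fold, Aldh18a1 1.72-fold, Glul 1.57-fold and Asns 1.38-fold. None of the 7 was called lower, and Gpt2, Got1 and Got2 did not pass. Of the 13515 genes tested, 14.3% were called higher and 15% lower (29.3% in either direction). The median log2 change over all genes was -0.11.

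**Figure D3:**
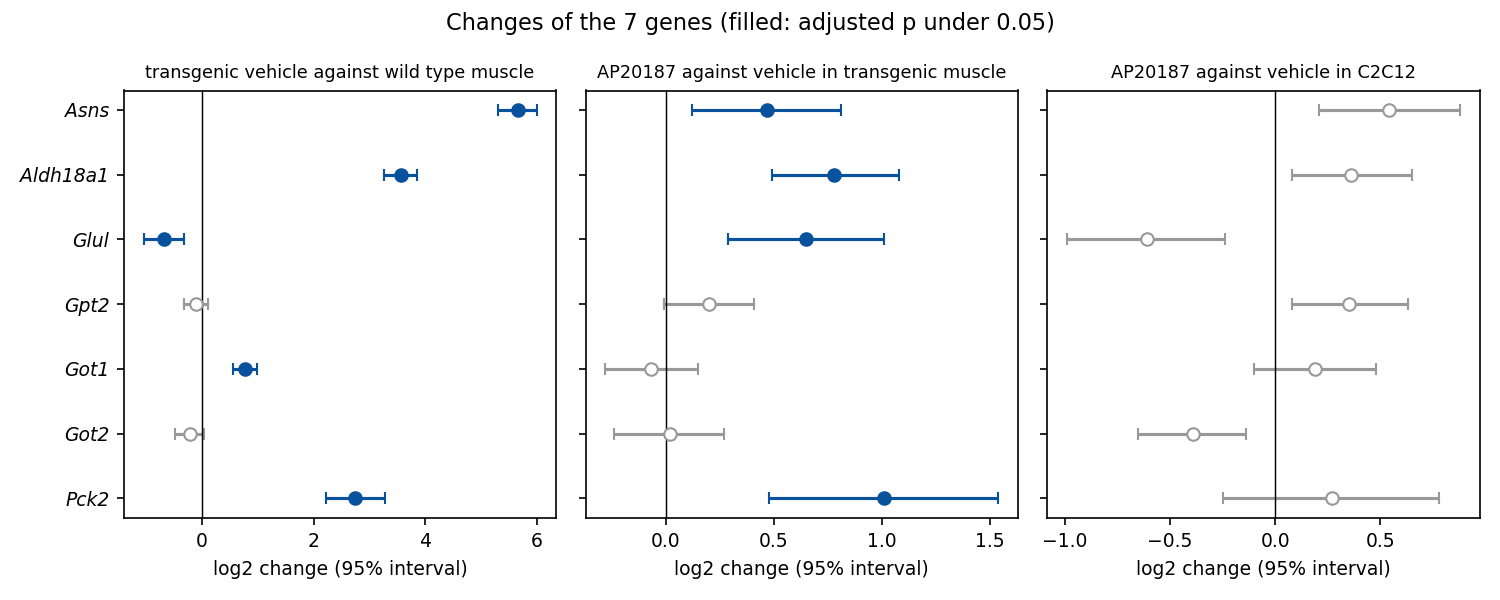
Log2 changes of the 7 genes with their 95% intervals in 3 comparisons; the x axis is the log2 change, with a range of its own in each panel, and filled points are changes with an adjusted p under 0.05. Transgenic against wild type muscle spans -0.69 to 5.66, AP20187 in transgenic muscle -0.07 to 1.01, and no gene is called in C2C12.

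Aldh18a1 rose from 1.78 and 1.50 to 2.47 and 2.38, a change of 0.78 (SE 0.13, n = 2 and 2, limma adjusted p = 0.00476). It was the only one of the 7 called under all 18 alternative settings and omissions, with changes from 0.64 to 0.92. Pck2 went from -1.49 and -1.61 to -0.60 and -0.47, a change of 1.01 (SE 0.23, limma adjusted p = 0.016) that shrank to 0.60 with normexp and was still called. Before scaling, its highest vehicle spot read 75.2 and its lowest AP20187 spot 116. The 75th percentiles of these arrays were 176.4 and 165.5 with vehicle and 194.2 and 202.7 with AP20187. Spots of an array are repeats of 1 sample and add no replicates. The call was lost without transgenic vehicle replicate 2 (limma adjusted p = 0.0814), AP20187 replicate 1 (0.056) or AP20187 replicate 2 (0.0743), with changes of 0.95, 1.08 and 0.95.

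Glul moved from 3.90 and 3.98 to 4.63 and 4.55, a change of 0.65 (SE 0.15, limma adjusted p = 0.0184), to the level of wild type muscle. This rise and the lower level against wild type use the same vehicle arrays with opposite sign, so they are not independent results. The call was lost without a variance trend (limma adjusted p = 0.055), without either vehicle replicate (0.0746 and 0.0705) and without AP20187 replicate 1 (0.0651). Asns went from 6.03 and 6.23 to 6.47 and 6.73, a change of 0.47 (SE 0.15, limma adjusted p = 0.0485). The AP20187 arrays lay above the vehicle arrays, but this call was the nearest to the threshold and was lost under 7 of the 18 alternatives, with adjusted p-values from 0.0131 to 0.196 over all of them (limma). Among these 7 were the authors' deposited values (0.103) and the fits without vehicle replicate 1 (0.187), vehicle replicate 2 (0.0867) or AP20187 replicate 2 (0.196).

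The transaminases stayed within narrow ranges. Gpt2 was 5.24 and 5.36 with vehicle and 5.45 and 5.54 with AP20187, a change of 0.20 (95% interval -0.01 to 0.41, limma adjusted p = 0.135) that quantile normalization and normexp each put at 0.33 and called. Got1 changed by -0.07 (95% interval -0.28 to 0.15, limma adjusted p = 0.608), with vehicle arrays at 7.73 and 7.86 and AP20187 arrays at 7.70 and 7.75. Got2 changed by 0.02 (95% interval -0.24 to 0.27, limma adjusted p = 0.919), from 6.37 and 6.23 to 6.43 and 6.21. The direction of Got1 turned under quantile normalization (0.19) and normexp (0.04).

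All 4 arrays of this comparison shared a scan session, and a fit to them alone called the same 4 genes, with adjusted p-values of 0.0383 for Asns, 0.00644 for Aldh18a1, 0.00574 for Glul and 0.00522 for Pck2 (limma). Transgenic vehicle replicate 2 was the only one of the 4 in row 2 of the slide. Without it, that is within row 1, the changes were 0.57 for Asns, 0.64 for Aldh18a1, 0.69 for Glul and 0.95 for Pck2, and Aldh18a1 alone passed (limma adjusted p = 0.0338).

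Markers of other cells moved in the same samples. All 9 macrophage markers were called lower with AP20187 (median log2 change -0.96), and their summed level was 36 to 39.8 in vehicle and 20.8 to 21.4 in AP20187 muscle, with all 9 well above background in both. Endothelial markers summed to 46.7 to 47.3 in vehicle but to 17.4 and 41.4 on the AP20187 arrays, and none of the 6 was called. Skeletal muscle markers had 0 of 10 called higher and 2 lower. The part of these markers in the changes of the 7 genes was not tested.

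Other genes of the same pathways were read from lists chosen with earlier results of these data known. Of 19 tested enzymes of asparagine, aspartate, glutamate and glutamine metabolism other than the 7, AP20187 in muscle raised 6 and lowered 3. Gclc, the catalytic subunit of the enzyme that joins glutamate to cysteine for glutathione, rose by 1.14 (SE 0.14, limma adjusted p = 0.00163), and its modifier subunit Gclm by 0.50 (limma adjusted p = 0.0156). The median change of the list was -0.03, beside -0.11 over all genes, and the number called higher was 4 without either wild type array, 1 without either vehicle array, and 2 and 1 without AP20187 replicate 1 and 2; the number lower was 1 to 3 over these omissions.

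Of 10 proline and ornithine enzymes, 1 rose and 2 fell. Prodh, the first enzyme of proline breakdown and so opposed to Aldh18a1, rose by 0.97 (limma adjusted p = 0.00196), while the collagen prolyl hydroxylase subunits P4ha1 and P4ha2 fell by 0.42 and 0.38 (limma adjusted p = 0.0285 and 0.0208). The falls of P4ha1 and P4ha2 were not called with normexp or with the authors' deposited values, nor without vehicle replicate 2 or either AP20187 replicate. None of 7 other aminotransferases was called by limma, and 0 had an unadjusted p under 0.05. Of 15 genes of the malate-aspartate shuttle and the phosphoenolpyruvate cycle, 0 rose and 4 fell, among them Mdh1 (-0.41), Mpc2 (-0.43) and Me1 (-0.43), and none of the 4 falls was called under quantile normalization or normexp, or without vehicle replicate 2 or AP20187 replicate 1; without AP20187 replicate 2 a single fall was called.

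The regulators of the amino acid response moved together: 9 of 10 rose and 0 fell, with a median change of 1.30. Ppp1r15a, the phosphatase subunit that reverses eIF2alpha phosphorylation, rose by 4.01, and the transcription factors Atf3 and Ddit3 rose by 3.46 and 3.09 (limma adjusted p = 1.23e-05, 4.56e-05 and 4.56e-05). Of 15 glucocorticoid and FoxO targets, the group to which Glul is often counted, 7 rose and 1 fell (median 0.62), led by Ddit4 (2.70), Klf15 (1.45) and Cebpd (1.73).

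Set against wild type, transgenic vehicle muscle showed the reverse order for that last group, as for Glul: 3 of 15 were higher and 9 lower, with a median of -1.0 beside 0.09 over all genes. Both comparisons use the same vehicle arrays with opposite sign, so the reversal is not an independent result. Whether Glul and these targets share a cause was not tested. Among the regulators 6 of 10 were higher and 1 lower (median 1.49). Of the remaining amino acid enzymes 4 of 19 were higher and 3 lower, and of the proline and ornithine enzymes 1 of 10 was higher and 2 lower, beside 25.7% higher and 12.6% lower over all genes. Genes named here were chosen after their values were seen: Psat1, the serine pathway transaminase, was 4.80 higher (limma adjusted p = 1.27e-06) and Kyat3 0.88 higher (limma adjusted p = 0.000794). Psat1 and Kyat3 were the 2 higher of 7 other aminotransferases. The myogenic markers summed to 1018 to 1049 in wild type and 272 to 311 in transgenic vehicle muscle, with 3 of 8 called higher and 3 lower, and their part in these differences was not tested.

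**Figure D4:**
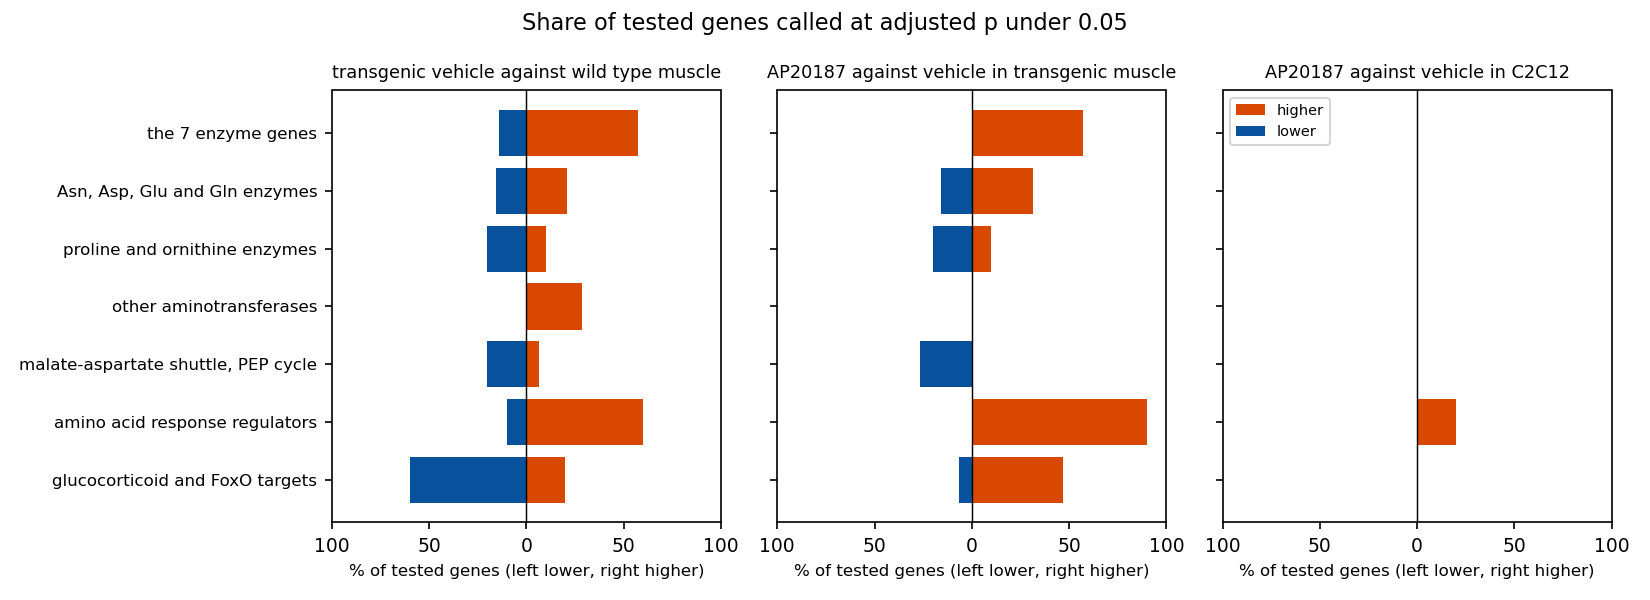
Share of tested genes called higher (right, orange) or lower (left, blue) at an adjusted p under 0.05, for the 7 enzyme genes and 6 pathway lists in 3 comparisons; the x axis is the percentage of the genes tested. The amino acid response regulators have 9 of 10 higher with AP20187 in muscle, and glucocorticoid and FoxO targets have 9 of 15 lower in transgenic vehicle muscle and 7 of 15 higher with AP20187.

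In C2C12 cells no gene of the 7 was called with AP20187, beside 0.307% of 11406 genes called higher and 0.167% lower. At an unadjusted p under 0.05 limma had 5 of the 7 and 1620 of all genes. AP20187 groups were scanned in row 2 of the slide and vehicle groups in row 1, so row and treatment cannot be told apart.

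Aldh18a1 read 1.24 and 1.34 with vehicle and 1.60 and 1.71 with AP20187, a difference of 0.36 (SE 0.13, limma adjusted p = 0.249). Asns read 6.02 and 5.95 with vehicle and 6.52 on the only AP20187 array with a usable spot, a difference of 0.54 (SE 0.15, limma adjusted p = 0.163) that rests on 3 arrays; the excluded spot would have given 6.45. Pck2 differed by 0.27 (95% interval -0.25 to 0.78, limma adjusted p = 0.639), with levels of -1.09 and -1.32 against -1.0 and -0.88.

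Glul went down in the cells, from 1.55 and 1.22 with vehicle to 0.56 and 0.98 with AP20187 (difference -0.61, SE 0.17, limma adjusted p = 0.154). Without AP20187 replicate 2 the difference was -0.82 (limma adjusted p = 0.00433), in a fit that assumes the single remaining AP20187 array to vary like the vehicle arrays. Got2 read 3.75 and 3.80 with vehicle and 3.42 and 3.35 with AP20187 (difference -0.39, limma adjusted p = 0.179), and its direction turned under quantile normalization (0.27), where the median of all genes was 0.38. Gpt2 read 2.65 and 2.50 against 2.99 and 2.87 (difference 0.35, limma adjusted p = 0.25), and Got1 4.39 and 4.12 against 4.51 and 4.38 (difference 0.19, limma adjusted p = 0.53).

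Quantile normalization shifted the whole comparison: the median change of all genes moved from -0.06 to 0.38, the calls from 35 higher and 19 lower to 4577 higher and 71 lower, and 4 of the 7 genes (Asns 1.33, Aldh18a1 0.80, Gpt2 0.93 and Got1 1.15) were then called higher. Relative to that shift of all genes, Asns was 0.95 higher, Aldh18a1 0.42, Gpt2 0.55 and Got1 0.77.

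In the cells limma called 0 genes of the 3 enzyme lists and the shuttle list; at an unadjusted p under 0.05 it had 1 of 16 asparagine, aspartate, glutamate and glutamine enzymes, 2 of 10 proline and ornithine enzymes, 2 of 6 other aminotransferases and 1 of 11 shuttle genes. Of the regulators, 2 of 10 were called higher, Atf3 by 1.44 (limma adjusted p = 0.000831) and Trib3 by 1.04 (limma adjusted p = 0.014). Trib3 had a usable value on a single AP20187 array, which the test assumes to vary like the vehicle arrays. Quantile normalization called 7 of the 16 enzymes of the first list and 8 of the 10 regulators higher, and normexp called 6 regulators; without vehicle replicate 2 the regulators called were 1. Adipocyte markers rose with AP20187 in C2C12, 5 of 8 called (median 3.05), with sums of 2.08 to 2.52 in vehicle and 10.7 to 14.2 in AP20187 cells and Lep not above background in either; their part in the values of the 7 genes was not tested.

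The responses of muscle and C2C12 to AP20187 were set against each other in a fit to all 10 arrays. In C2C12 slide row and treatment cannot be told apart, and this limit carries over to the difference. Glul was the only one of the 7 whose change was called different: it was 1.26 larger in muscle (SE 0.26, 95% interval 0.70 to 1.83, limma adjusted p = 0.0121), where both AP20187 arrays lay above both vehicle arrays, than in C2C12, where both lay below. Of the 14085 genes tested, 7.95% were called with a larger and 3.98% with a smaller change in muscle. The Glul difference was called under all 21 alternatives, with values from 1.00 to 1.47 and limma adjusted p-values from 0.00674 to 0.0469.

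No difference was called for the other 6. It was -0.08 for Asns (95% interval -0.57 to 0.42), 0.42 for Aldh18a1 (0.02 to 0.82), 0.74 for Pck2 (0.01 to 1.48), -0.16 for Gpt2 (-0.46 to 0.15), -0.26 for Got1 (-0.60 to 0.09) and 0.41 for Got2 (0.09 to 0.73). The limma adjusted p-values were 0.0941 to 0.854, and the intervals, which are not adjusted, do not show that the changes were alike. Under quantile normalization Asns (-0.67), Gpt2 (-0.59) and Got1 (-0.96) were called smaller in muscle, and the values of Aldh18a1 and Got2 turned to -0.05 and -0.04. The median of all genes moved from -0.06 to -0.31 under that setting, and relative to it Asns was -0.37, Gpt2 -0.28, Got1 -0.65, and Aldh18a1 and Got2 0.26 each. Among the listed genes Gclc (1.19, limma adjusted p = 0.00472) and Prodh (0.85, limma adjusted p = 0.0214), both named after their values were seen, also had larger changes in muscle.

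Vehicle-treated C2C12 cells and vehicle-injected transgenic muscle both carry Fv2E-PERK and differ in source, vehicle and scan session. Got1, Gpt2, Glul and Got2 were lower in the cells: the log2 difference was -3.54 for Got1, -2.72 for Gpt2, -2.56 for Glul and -2.52 for Got2, that is 11.6-, 6.61-, 5.88- and 5.75-fold lower. Asns differed by -0.15 (95% interval -0.46 to 0.16), Pck2 by 0.34 (-0.18 to 0.86) and Aldh18a1 by -0.35 (-0.64 to -0.07, limma adjusted p = 0.0266). Of the 7 genes, 5 were called lower and 0 higher, against 40.2% and 38.7% of the 14085 genes tested (78.9% in either direction), so a call as such was common here. Of the markers tested, 9 of 9 of skeletal muscle (median -4.13), 9 of 9 of adipocytes (-6.72), 9 of 9 of macrophages (-4.13) and 6 of 6 of endothelium (-4.09) were also lower in the cells, and their part in these differences was not tested. The Aldh18a1 call was lost under quantile normalization (-0.22), with the percentile over detected probes (-0.13), and without transgenic vehicle replicate 1 (-0.21) or C2C12 vehicle replicate 1 (-0.30). The Asns value turned to 0.38 (limma adjusted p = 0.0296) and 0.07 under the first pair of settings. With the percentile over detected probes the median of all genes moved from -0.04 to 0.18, and relative to it Asns was -0.11 and Aldh18a1 -0.31.

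Over the 5 groups mean levels of Asns and Aldh18a1 increased from wild type muscle through C2C12 vehicle, transgenic vehicle and C2C12 AP20187 to transgenic AP20187 muscle. For Asns the last 2 groups overlapped, with a single C2C12 AP20187 array holding a value, and for Aldh18a1 transgenic vehicle and C2C12 AP20187 did. Pck2 followed the order wild type, transgenic vehicle, C2C12 vehicle, C2C12 AP20187 and transgenic AP20187 muscle, with no overlap between neighbours. Its wild type level was not well above background. Its difference was not called between C2C12 vehicle and transgenic vehicle (limma adjusted p = 0.2) or within C2C12 (limma adjusted p = 0.639). With 2 arrays per group a lack of overlap is a weak description, and its share over all genes was not counted. For Gpt2, Got1, Got2 and Glul both C2C12 groups came lowest and the 3 muscle groups highest; the neighbours that overlapped were the AP20187 and wild type muscle groups for Glul, the vehicle and AP20187 groups in each source for Got1, and the transgenic muscle groups for Got2.

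The genes whose levels ran most like those of each enzyme were found by the root mean square difference over the 10 arrays (9 for Asns), each gene centred on its own mean, among 13220 genes (13377 for Asns). This is a description of shared arrays, with no test. For Asns the nearest were Mthfd2, a mitochondrial folate enzyme, at 0.32 log2 units and Prr32 at 0.52, and Aldh18a1 and Pck2 came 8th and 12th at 0.92 and 1.09. Aldh18a1 was nearest to Tbc1d31 (0.32) and then to Pck2 (0.34), and Pck2 to Cbx2 (0.32) and then to Aldh18a1 (0.34). The Pck2 values of wild type muscle used here were not well above background. Glul lay nearest to Usp2 (0.18) and Cyyr1 (0.28). The transaminases had closer neighbours: Th and Mrrf for Gpt2 (0.12 each), Acadl (0.11) and Atp1b1 (0.14) for Got1, and Speg (0.10) and Sgca (0.13) for Got2, where Speg and Sgca encode muscle proteins and Acadl an enzyme of fatty acid oxidation. Between the transaminases themselves the differences were 0.28 to 0.45, and between any of them and Aldh18a1 or Pck2 they were 2.19 to 2.34.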

How the data were processed

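RNA (150 ng per sample, per the labels' protocols) was labelled with Cy3 and hybridised to Agilent arrays of 62976 spots. The deposited scanner files hold intensities that Agilent Feature Extraction 10.7.1.1 had corrected for background, per the file headers. The authors also deposited a table of log2 values of the same arrays, used here only as an alternative: of its 55821 lines 55681 belonged to gene probes. Between-array differences in the table and in the scanner intensities had correlations of 0.9998 or more, which settles scale and direction, whereas its centring stays unknown. The medians of its columns (replicate 1, then 2) were -0.46 and -0.45 in untreated wild type muscle. Muscle with the transgene had -0.42 and -0.35 after vehicle and -0.37 and -0.57 after AP20187. C2C12 cells had 0.34 and 0.70 after vehicle and 0.80 and 0.77 after AP20187.

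Control spots (3671 per array) and spots with an outlier flag were left out, and spots of a probe were averaged. Values were log2 intensity minus log2 of the 75th percentile of all gene spots of the array. Accessions were matched without versions to RefSeq names (GRCm38.p6), which named 26056 of 55681 probes; 29625 stayed unnamed. The brightest probe stood for a gene. Tests included every gene whose probe was well above background (more than 0.5 of its spots) on both arrays of at least 1 group.

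limma 3.58.1 in R 4.3.3 (lmFit, eBayes with a variance trend) was fitted to the 6 muscle arrays, the 4 C2C12 arrays, or all 10 for comparisons between sources, with Benjamini-Hochberg adjustment over all genes tested; the scripts were tested on simulated data. The number of arrays limits the precision. The genes and lists were chosen with earlier results of these data known. Named were the 7 measured genes in every comparison, up to 3 called genes of each list with the smallest p in the AP20187 comparisons, and the 2 nearest profiles of each gene, leaving out clone, predicted-gene and olfactory receptor names; some genes that this selection includes are not reported here. Alternatives covered scaling, background correction (normexp with an offset of 50 on median spot and background signals, in place of the mean signals planned), filter, probe choice, outlier spots, the deposited values, the variance model, the arrays in the fit, the replicate number as a block and leaving out each array. Percentile scaling without outlier spots was added after seeing the data.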

Additional observations from a re-analysis of the deposited data

Results flagged for a closer look

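The change of Glul with AP20187 differed between muscle and C2C12 by 1.26 log2 units (limma adjusted p = 0.0121). It was singled out because the test of the difference between the changes in the 2 sources passed: both AP20187 arrays were above both vehicle arrays in muscle and below both in C2C12. The change within C2C12 alone, -0.61, did not pass (limma adjusted p = 0.154), and source and scan session cannot be told apart. Within C2C12 slide row and treatment cannot be told apart either, and the difference between sources carries that limit.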

How the results depend on the processing

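Of the alternative log2 changes of the 7 genes, 715 kept direction and side of the threshold, 20 newly passed it, 19 lost it and 20 turned direction. With AP20187 in muscle 2 of 7 genes were called without a variance trend and 1 to 2 when 1 array of the compared groups was left out, beside 4 as reported and 3 to 5 under the other settings. Where an omission leaves 1 array in a group, that array is assumed to vary like those of the other groups. In C2C12 quantile normalization called 4 and the percentile without outlier spots 1, and leaving out arrays gave 0 to 1. For the difference between sources quantile normalization called 4.

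Values turned direction as follows. Got1 with AP20187 in muscle was 0.19 with quantile normalization, 0.04 with normexp and 0.00 without vehicle replicate 2 (-0.13 to 0.00 over the omissions). Got2 there was -0.06 without vehicle replicate 2 and -0.10 without AP20187 replicate 1 (-0.10 to 0.13 over the omissions), and in C2C12 0.27 with quantile normalization. Glul in AP20187 against wild type muscle was 0.14 with normexp, 0.22 without wild type replicate 1 and 0.01 without AP20187 replicate 2 (-0.28 to 0.22), and Gpt2 was -0.05 with quantile normalization and the percentile over detected probes; the latter moved the median of all genes from 0.04 to -0.09, relative to which Gpt2 was 0.04. For the difference between sources Asns was 0.10 with normexp, 0.03 with the authors' deposited values, 0.03 without vehicle replicate 2 and 0.06 without AP20187 replicate 1 (-0.21 to 0.06); Aldh18a1 was -0.05, Got2 -0.04 (quantile normalization) and Gpt2 0.04 (normexp). Asns in C2C12 against muscle was 0.38 and 0.07 with quantile normalization and the percentile over detected probes (-0.11 relative to all genes under the latter). Mdh1 in transgenic vehicle against wild type muscle was -0.02 with quantile normalization. The cause was not tested.

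Scaling moved the split of all calls into higher and lower: 1939 and 2021 against 2075 and 1199 (quantile) with AP20187 in muscle, 3479 and 1700 against 2608 and 2319 (quantile) or 2253 and 2723 (detected probes) for transgenic vehicle against wild type, 4004 and 3047 against 3153 and 3956 (detected probes) for AP20187 against wild type, and 1120 and 560 against 585 and 3270 (quantile) for the difference between sources.

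Replicate numbers in the labels name different samples. Deviations of same-numbered arrays correlated at 0.35, 0.19 and 0.31 in the muscle comparisons and 0.02 in C2C12. With the replicate number as a block, calls over all genes went from 3960 to 5594, 5179 to 6423 and 7051 to 8081 in muscle, from 54 to 95 in C2C12, from 1680 to 1775 and from 11107 to 11145 between sources, and the genes called among the 7 were 4, 6, 5, 0, 1 and 5; Got2 was then called lower in transgenic vehicle (-0.22, limma adjusted p = 0.0359) and AP20187 muscle (-0.21, 0.0379) against wild type. The slide could not be used as a block, since the identifier recorded for 2 sessions is the same and 2 positions are repeated.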
